A study of Mus musculus with 2 samples.

Results

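Nuclear genes for the subunits of oxidative phosphorylation were examined in the RNA of activated regulatory T cells, a class of CD4 T cell that depends on the factor Foxp3 and holds other immune cells in check. The genes were chosen by symbol among protein-coding genes: Nduf with a subunit letter and digit, Sdha to Sdhd, Uqcr, Cyc1, Cox4 to Cox8, and Atp5. They were 86 gene identifiers with 85 symbols, out of 22028 protein-coding and 55536 genes of all types in the tables, since Atp5o has 2 identifiers. By the complex each subunit belongs to, 35 fell in complex I, 4 in complex II, 9 in complex III, 20 in complex IV and 18 in complex V. Ndufa4 and Ndufa4l2 were placed in complex IV, where the Ndufa4 protein resides despite its name. The rule missed the complex I subunit Ndufab1, which stood at 112 TPM in library 1 and 87.8 TPM in library 2 (a level per unit of transcript length, scaled to a fixed total).

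The cells came from a male adult mouse of 4 months of the Foxp3CreERT2 x Rosa26YFP strain, in which the Foxp3 locus drives an inducible Cre recombinase and Rosa26 carries a yellow fluorescent reporter. Polyadenylated RNA was sequenced from biological replicate 1 as technical replicates 1 and 2, called library 1 and library 2, with sheared fragments of 100 to 300 bases. The labels name a bone marrow hematopoietic cell as the origin, and the sources used here do not give the sort or the activation. There is 1 group and no control, so the values describe levels in this sample. Each SD covers the spread between technical libraries of 1 mouse, and each p-value covers counting error in these libraries only. The tables held 15076048 estimated gene reads in library 1 and 14635787 in library 2. All 5 regulatory T cell markers and all 5 T cell markers listed for the check were expressed, with Foxp3 at 22.4 ± 2.1 TPM (SD, n = 2). Of 4 B cell markers 1 reached 1 TPM in both libraries, of 4 myeloid markers 1, and of 4 erythroid markers 2. The highest of these lists were Cd79a at 1.48 TPM, Cd68 at 2.53 TPM and Hbb-bs at 5.5 TPM, as means of both libraries.

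Complexes I to IV form the respiratory chain of the inner mitochondrial membrane. Complexes I and II take electrons from NADH and from succinate, complex III passes them by way of cytochrome c to complex IV, and complex IV reduces oxygen. Complex V, the ATP synthase, uses the proton gradient built by the chain to make ATP. A small set of subunits is encoded in mitochondrial DNA, and nuclear genes supply all the others, including every subunit of complex II. T cells draw on this pathway beside glycolysis, and regulatory T cells are known for their reliance on it.

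Nearly all the ubiquitous subunits were expressed at high levels. Of the 86 identifiers, 78 (90.7%) reached 1 TPM in both libraries, against 46.2% of all protein-coding genes. At 100 TPM or more in both libraries stood 64 (74.4%), against 5.25% of protein-coding genes. The median over all 86 was 207.4 TPM in library 1 and 206.6 TPM in library 2, and the median log2(TPM + 1) was 7.70 ± 0.0039 (SD, n = 2), against 0.67 for all protein-coding genes and 4.25 for the expressed ones. The 8 others were Cox4i2, Cox6a2, Cox6b2, Cox7b2, Cox8b, Cox8c and Ndufa4l2, all tissue-restricted paralogues, and the other identifier of Atp5o. In sum, the subunits held 2.04% of all TPM in library 1 and 2.03% in library 2, but 1.11% and 1.10% of the gene reads. Their median length was 648 bases among the 78 expressed, against 2140 bases among 10171 expressed protein-coding genes. In a bulk sample, fewer cells expressing a gene and less RNA per cell cannot be told apart.

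**Figure D1:**
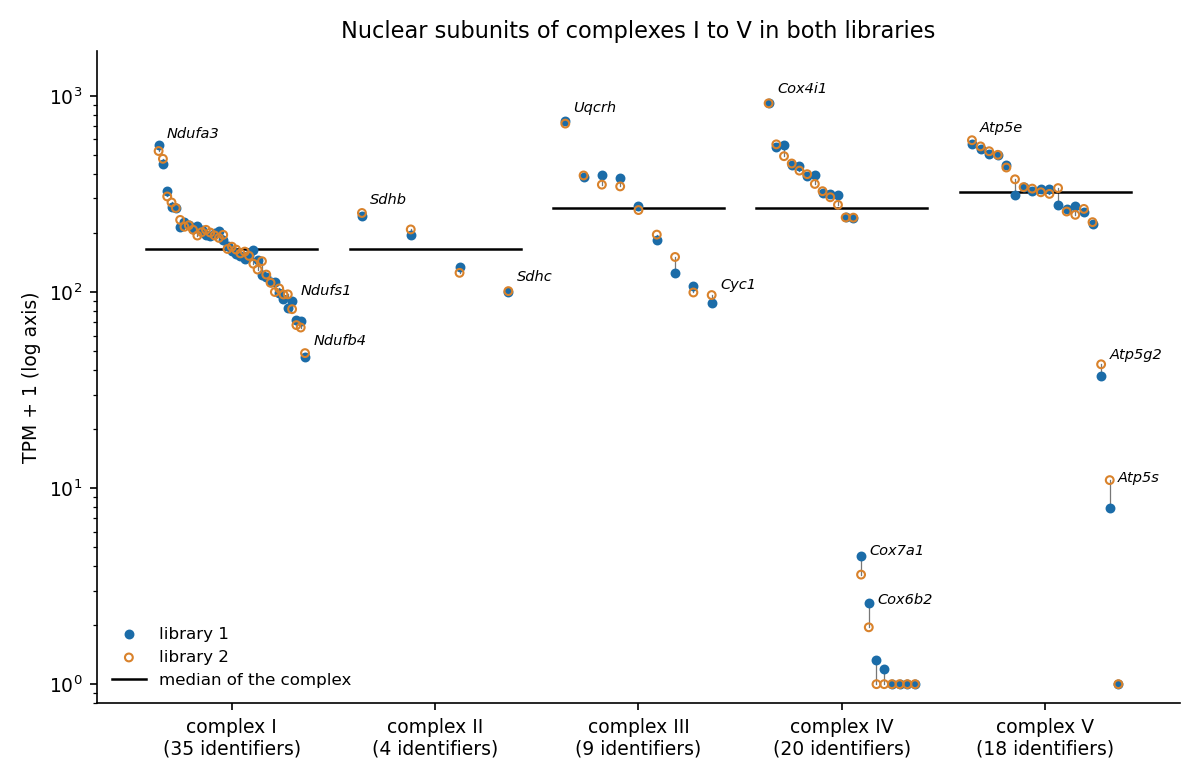
Each point is a gene identifier's level in a library, as TPM + 1 on a log axis, ordered from high to low within its complex, with filled blue points for library 1, open orange points for library 2 and a black line at the complex's median. The levels in both libraries nearly coincide, Cox4i1 is the highest, and the low values of complex IV are its tissue-restricted paralogues.

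Complexes III, IV and V stood above complexes I and II. The median in library 1 was 163 TPM for complex I, 164 TPM for complex II, 274 TPM for complex III, 275 TPM for complex IV and 319 TPM for complex V. In library 2 the medians were 165, 166, 261, 258 and 329 TPM in the same order. The order of complexes III and IV and that of complexes I and II lay within a few percent and are not told apart by these values. On the log2(TPM + 1) scale, the median of complex V exceeded that of all other subunits by 0.76 ± 0.0032 and that of complex I fell short of the others, with a difference of -0.71 ± 0.048 (SD over libraries, n = 2). The differences were -0.37 ± 0.019 for complex II, 0.37 ± 0.054 for complex III and 0.40 ± 0.058 for complex IV. Subunits are not replicates, so these differences carry no test. With the subunits under 1 TPM left out, the excess of complex IV was 0.87, and it was the highest of the 5 differences. On protein-coding transcripts, the medians of expressed subunits were 256 and 264 TPM for complex V and 313 and 283 TPM for complex IV. Complex III had 272 and 258 TPM, complex I 141 and 138 TPM, and complex II 131 and 137 TPM, in library order. Summed over its subunits, complex I held 6391 TPM in library 1 and 6368 TPM in library 2, complex V 5534 and 5669 TPM, complex IV 5133 and 4980 TPM, complex III 2673 and 2610 TPM, and complex II 669 and 684 TPM.

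Sequence upstream of the genes was searched for 4 motifs of factors known to control nuclear genes of the respiratory chain. These were the NRF1 core CGCATGCG, which is its own reverse complement, the ETS motif CCGGAAG read by GABPA, the YY1 motif AAGATGGCG, and the ERR alpha motif TCAAGGTCA, each on both strands. RefSeq promoters on GRCm38.p6, from 250 bases before to 50 bases after a start, were found for 65 of the 78 expressed subunits. The NRF1 core was in 13.8% of these genes, against 4.93% of expressed protein-coding genes and 2.07% of all genes in the promoter table. The YY1 motif was in 10.8%, against 4.16% and 1.64%. The ERR alpha motif was in 3.08%, against 0.34% and 0.47%, but this share is only 2 genes, Atp5g3 and Sdhd. The match in Sdhd begins 36 bases after the start. The ETS motif was in 24.6% of expressed subunits and 23.5% of expressed protein-coding genes, which are close, and in 9.93% of all genes. Of the 4 tissue-restricted paralogues with a promoter in the table, 0 held any of the motifs, against 17.5% of all protein-coding genes. With 4 genes, a count of 0 shows no contrast. These shares are descriptions with no test, and a match is a run of letters, not a site shown to be bound.

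The 4 promoters below are shown because they hold a match close to the start in well expressed genes of complexes III, IV and V. Each is the 170 bases before the RefSeq start, read 5′ to 3′ on the gene's strand, with matches to the NRF1 core, ETS or ERR alpha motif in capitals.
Uqcr11 chr10:80406822-80406991 (minus strand): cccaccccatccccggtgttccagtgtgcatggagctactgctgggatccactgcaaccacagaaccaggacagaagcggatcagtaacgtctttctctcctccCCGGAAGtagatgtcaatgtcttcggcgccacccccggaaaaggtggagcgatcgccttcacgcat
Uqcrh chr4:116075071-116075240 (minus strand): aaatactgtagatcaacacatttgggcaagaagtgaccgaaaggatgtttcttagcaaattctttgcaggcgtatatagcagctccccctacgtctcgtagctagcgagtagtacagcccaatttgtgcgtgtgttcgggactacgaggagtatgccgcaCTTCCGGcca
Cox6a1 chr5:115348959-115349128 (minus strand): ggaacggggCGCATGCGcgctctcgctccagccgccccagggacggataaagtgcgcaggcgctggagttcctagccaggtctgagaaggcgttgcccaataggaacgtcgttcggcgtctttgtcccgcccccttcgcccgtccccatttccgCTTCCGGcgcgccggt
Atp5g3 chr2:73911327-73911496 (minus strand): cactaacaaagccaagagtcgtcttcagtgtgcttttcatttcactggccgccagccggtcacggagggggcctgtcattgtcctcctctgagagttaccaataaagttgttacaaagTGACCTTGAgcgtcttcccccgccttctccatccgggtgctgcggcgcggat
In Uqcr11 the ETS match begins 66 bases before the start, and an NRF1 core begins 5 bases before it and runs across it, so only its front lies in the stretch shown. Uqcrh has an ETS match on the opposite strand 10 bases before the start. In Cox6a1 an NRF1 core lies 161 bases before the start and an ETS match on the opposite strand 16 bases before it. Atp5g3 has an ERR alpha match on the opposite strand 52 bases before the start. The YY1 motif lay downstream in 6 of 7 matches, beginning 22 to 35 bases after the start of Ndufc1, Atp5j2, Ndufs7, Ndufa9, Ndufs6 and Ndufs4. Genes for the factors were themselves expressed: Nrf1 had 55.03 TPM in library 1 and 64.1 TPM in library 2, Gabpa 18.9 and 15.9 TPM, Yy1 13.7 and 12.5 TPM, and Esrra, which encodes ERR alpha, 2.86 and 2.96 TPM. Of 12 regulators of mitochondrial biogenesis, 11 reached 1 TPM in both libraries, from Tfam, the mitochondrial DNA packaging factor, at 62.3 ± 4.2 TPM (SD, n = 2). Ppargc1a, the coactivator PGC-1 alpha, had 0 reads in library 1 and 3 reads in library 2.

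In complex I the accessory subunits stood above the catalytic core. The 7 nuclear core subunits had a median of 97.3 TPM in library 1 and 103 TPM in library 2, while the 28 accessory subunits had medians of 177 and 179 TPM. Ndufv1, which binds NADH and flavin, had 97.3 TPM in library 1 and 103 TPM in library 2. Ndufv2, an iron-sulfur subunit beside it, had 193 and 199.99 TPM. Of the iron-sulfur subunits along the peripheral arm, Ndufs1 had 88.9 and 80.7 TPM and Ndufs8 198 and 193 TPM. Ndufs7, beside the quinone pocket, had 155 and 164 TPM, and Ndufs3, another core subunit of that arm, had 91.3 and 96.1 TPM. Among the core subunits named here, Ndufv2 and Ndufs8 were the highest in both libraries, and their values were close to each other.

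Among accessory subunits, which surround the core and stabilise it, Ndufa3 was the highest, with 561 TPM in library 1 and 523 TPM in library 2. Ndufa6 followed with 449.9 and 477 TPM, and Ndufa7 with 327 and 306 TPM. The lowest was Ndufb4, a membrane arm subunit, with 45.7 and 47.8 TPM. Over all transcripts, the span between Ndufa3 and Ndufb4 was 11.6-fold on mean TPM, and all 35 complex I genes exceeded 10 TPM in both libraries. On protein-coding transcripts Ndufa3 had 32.4 and 39.96 TPM, Ndufb4 1.94 and 1.05 TPM, and Ndufa10 4.62 and 7.73 TPM. The ranks of Ndufa3 and Ndufb4 thus depend on how reads were split between transcripts. Ndufb4 also shares sequence with a pseudogene, as described below. Ndufs4, whose loss gives a mouse model of Leigh syndrome, had 154 TPM in library 1 and 152 TPM in library 2. By name, the 12 Ndufa genes had medians of 195 TPM in library 1 and 198 TPM in library 2, the 10 Ndufb genes 183 and 176 TPM, and the 2 Ndufc genes 189.8 and 166 TPM. Below 100 TPM in both libraries among the accessory subunits were Ndufb2 (69.95 and 64.9 TPM), Ndufb3 (70.8 and 66.8 TPM) and Ndufb4. Ndufa13, also known as the cell death regulator GRIM-19, had 209 and 207 TPM. Ndufa1, a short membrane subunit encoded on the X chromosome, had 269.6 and 285 TPM.

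Complex II, succinate dehydrogenase, showed the narrowest range of the complexes, 2.49-fold over its 4 subunits. It also has the fewest subunits, and the 7 nuclear core subunits of complex I spanned 2.32-fold, so a narrow range was not particular to it. The iron-sulfur subunit Sdhb had 243 TPM in library 1 and 252 TPM in library 2. Sdha, the flavoprotein that oxidises succinate, had 194 and 208 TPM. The membrane anchors were lower, Sdhd at 133 and 124 TPM and Sdhc at 98.9 and 100.06 TPM. Over all transcripts this order held in both libraries. On protein-coding transcripts Sdha had 128.8 and 149.96 TPM and Sdhd 133 and 124 TPM, so Sdha was below Sdhd in library 1.

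In complex III the small subunits stood highest and those carrying redox centres lowest. Uqcrh, the hinge subunit that docks cytochrome c1, had 740.15 TPM in library 1 and 722 TPM in library 2. Uqcr10 had 387 and 392 TPM and Uqcrq, next to the cytochrome b subunit, 392 and 352 TPM, and their order differed between the libraries. Uqcrb, which binds near the quinone site, had 379 and 345 TPM, and Uqcr11, the subunit whose promoter is shown above, 274 and 261 TPM. The core proteins Uqcrc2 and Uqcrc1 had 184 and 195 TPM and 124 and 149.9 TPM in library order. The Rieske iron-sulfur protein Uqcrfs1 had 106 and 98.5 TPM. Cyc1, cytochrome c1, was the lowest by the mean of both libraries, with 86.5 and 95.5 TPM, and its values over all transcripts came close to those of Uqcrfs1. On protein-coding transcripts Cyc1 had 23.3 and 21.2 TPM, while Uqcrfs1 kept 106 and 98.5 TPM.

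In complex IV the regulatory subunit Cox4i1 was the highest of all 86, with 920.4 TPM in library 1 and 916 TPM in library 2. Cox6c followed with 551 and 565 TPM and Cox6b1, at the intermembrane face, with 564 and 492 TPM. Cox5a and Cox5b, an early assembly subunit and the zinc-binding subunit, had 238 and 239 TPM and 316 and 303 TPM in library order. Ndufa4 had 439.6 and 415 TPM. The small membrane subunits Cox6a1, Cox7c, Cox7b and Cox8a had levels between 277 and 451 TPM over both libraries. Cox6a1 was the highest of them with 446 and 451 TPM, and Cox8a the lowest with 311 and 277 TPM. Cox7a2l, known as a supercomplex assembly factor, had 388 and 398 TPM. All 12 ubiquitous subunits of complex IV exceeded 200 TPM in both libraries.

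In complex V the 3 highest were Atp5e, the epsilon subunit, with 569 TPM in library 1 and 593 TPM in library 2, Atp5h, subunit d, with 533 and 552 TPM, and Atp5l, subunit g, with 507 and 521 TPM. The catalytic head subunits Atp5a1 (alpha) and Atp5b (beta) had 277 and 338 TPM and 313 and 375 TPM in library order. Atp5c1, the gamma subunit of the central stalk, had 498 and 499.8 TPM, and Atp5d, the delta subunit, 256 and 264 TPM. The peripheral stalk holds the head against the membrane. Its subunits Atp5j (F6), Atp5f1 (b) and Atp5o (OSCP) had 441.8 and 430.4 TPM, 334 and 322 TPM, and 325 and 336 TPM in library order. The membrane subunits Atp5j2 (f), Atp5mpl and Atp5k (e) had 336 and 316 TPM, 264 and 256 TPM, and 220.2 and 226 TPM. The lowest with reads was Atp5s, a homologue of coupling factor B, with 6.93 and 9.98 TPM. The transcripts of the alpha and beta subunits, which outnumber gamma in the assembled enzyme, did not exceed those of gamma in either library. The c subunit of the membrane ring is made from 3 genes whose mature proteins are the same. Atp5g3 had 342.3 and 341.7 TPM, Atp5g1 274 and 247 TPM, and Atp5g2 36.5 and 41.8 TPM. Atp5g1 thus stood at 76.1 ± 5.6% of Atp5g3 and Atp5g2 at 11.4 ± 1.1% (SD, n = 2). The pseudogene Gm10175, the gene that shares most windows with Atp5g2, was assigned 476 and 469 TPM, and reads of the shared sequence cannot be placed between them with certainty. Atp5g1 also shares 66.0% of its windows with other genes, most of all with the pseudogene Gm10039, while Atp5g3 shares none. Gm10039 was assigned 327 reads in library 1 and 366 in library 2. In the second gene table, described below, Atp5g1 had 15 and 13 counts and Atp5g3 819 and 816. The ratio of Atp5g1 to Atp5g3 therefore holds for the first gene table alone, and its SD does not cover the placing of shared reads.

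Tissue-restricted paralogues were at or near the limit of detection beside partners at 239 TPM or more. Of the 8 paralogues, 6 were under 1 TPM in both libraries, and 1, Cox7a1, was above it in both. The 4 with 0 reads in both libraries were Cox4i2, the lung form, Cox6a2, the heart and skeletal muscle form, Cox8b, a muscle and brown fat form, and Ndufa4l2, which is induced by hypoxia in other cells. A count of 0 allows up to 3 reads, which puts Cox4i2 at least 2591-fold lower than Cox4i1 in library 1 and at least 2433-fold lower in library 2. By the same limit, Cox6a2 was at least 1162-fold and 1111-fold lower than Cox6a1, Cox8b at least 399.98-fold and 337-fold lower than Cox8a, and Ndufa4l2 at least 1307-fold and 1165-fold lower than Ndufa4. These limits cover counting error only and rest on the first gene table. In the second gene table, described below, Cox4i2 had 2 counts in library 1 and 1 in library 2. Its limits therefore hold for the first table alone. Cox6a2, Cox8b and Ndufa4l2 had 0 counts there in both libraries.

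The other 4 paralogues had reads. Cox7a1, the heart and skeletal muscle partner of Cox7a2, had 3.48 TPM in library 1 and 2.62 TPM in library 2, from 16 and 11 reads, against 239.5 and 239.0 TPM for Cox7a2. It stood at 1.27 ± 0.25% of Cox7a2 (SD, n = 2), with a 95% counting interval of 0.84% to 1.85%. Of the Cox7a2 level, 51.75 TPM in library 1 and 53.45 TPM in library 2 lay on protein-coding transcripts, as did all of Cox7a1. The ratio over all transcripts thus depends on how reads were split between transcripts, which the interval does not cover. Cox6b2, a testis form, had 1.60 and 0.95 TPM from 10 and 5 reads, or 0.24% of Cox6b1 with an interval of 0.14% to 0.40%. Cox7b2 and Cox8c, also testis forms, had 2 reads and 1 read, all in library 1. Their ratios to Cox7b and Cox8a were 0.052% (0.0062% to 0.18%) and 0.032% (0.00086% to 0.19%). Cox7b had 32.1 and 34.7 TPM on protein-coding transcripts, so the ratio to it depends on the same split. Of 5 striated muscle markers 1, Tnnt3, reached 1 TPM in both libraries, and their summed level was 3.12 TPM in library 1 and 3.53 TPM in library 2. Of 4 testis germ cell markers 0 did, with sums of 0.58 and 0.31 TPM and Prm2 listed at 0, and of 2 brown fat markers 0 did, with Ucp1 listed at 0. The part of other cells in the reads of Cox7a1 and Cox6b2 was not tested. The testis cytochrome c, Cyct, had 0 reads, while the somatic Cycs had 18.1 and 20.9 TPM.

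**Figure D2:**
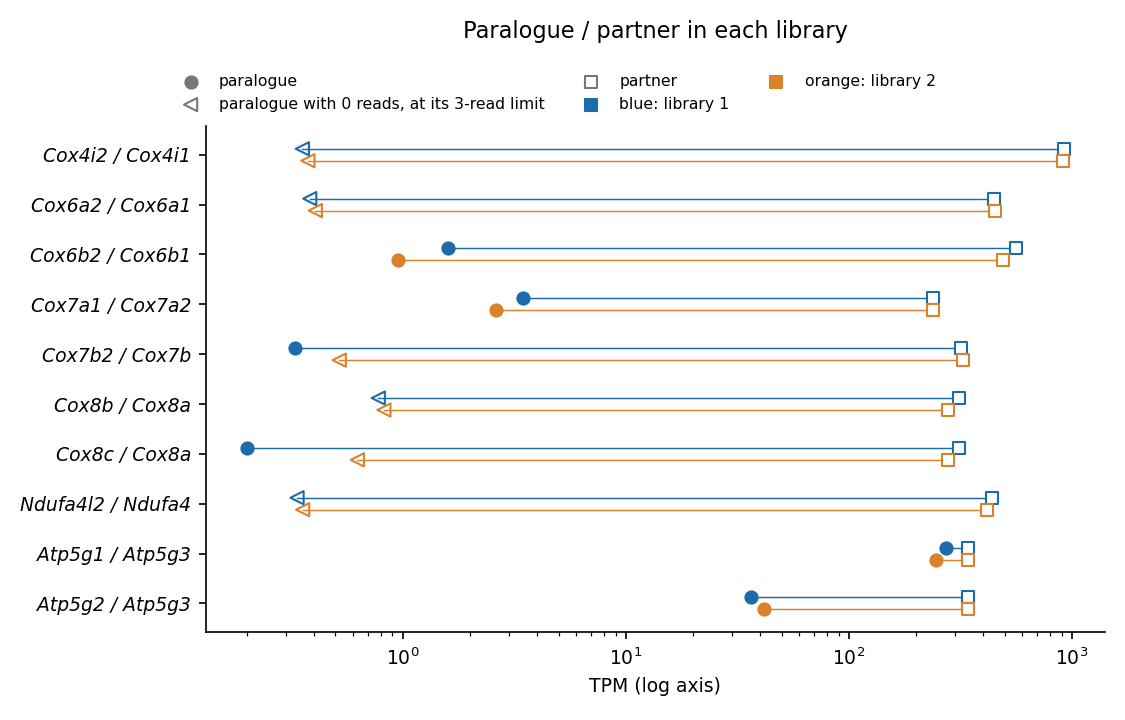
Each row pairs a paralogue (circle) with its partner (square) on a log axis of TPM, blue for library 1 and orange for library 2, and open triangles stand at the 3-read limit of a paralogue with 0 reads in that library. The 8 tissue-restricted genes lie at 3.48 TPM or below, far left of their partners, while Atp5g1 lies close to Atp5g3.

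For 13 of the 78 expressed subunits (16.7%), at least 50% of the gene's TPM in both libraries was assigned to transcripts not annotated as protein-coding, against 15.4% of all expressed protein-coding genes. Ndufa10, an accessory subunit of complex I, had 160.03 TPM in library 1 and 169 TPM in library 2 in all, of which 4.62 and 7.73 TPM lay on protein-coding transcripts. In Ndufb4 the protein-coding transcripts held 1.94 and 1.05 of 45.7 and 47.8 TPM, and in Ndufa3 they held 32.4 and 39.96 of 561 and 523 TPM. The leading Ndufa3 transcript, Ndufa3-204, is annotated as a target of nonsense-mediated decay and held 91.1% and 88.4% of the gene. Cox7b, Atp5j, Ndufa5 and Ndufs4 also had over 80% of their TPM on such transcripts in both libraries. On protein-coding transcripts alone the median of the 78 was 194 and 192 TPM, against 220 and 222 TPM on all transcripts. Cyc1 fell to 23.3 and 21.2 TPM on this count, and Cox7a2 to 51.75 and 53.45 TPM. Atp5l, among the 3 highest of complex V over all transcripts, fell to 215 and 191 TPM, and Atp5f1 to 105 and 104 TPM. The deposited estimates split reads between transcripts of much shared sequence, so the levels of such subunits depend on that split.

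**Figure D3:**
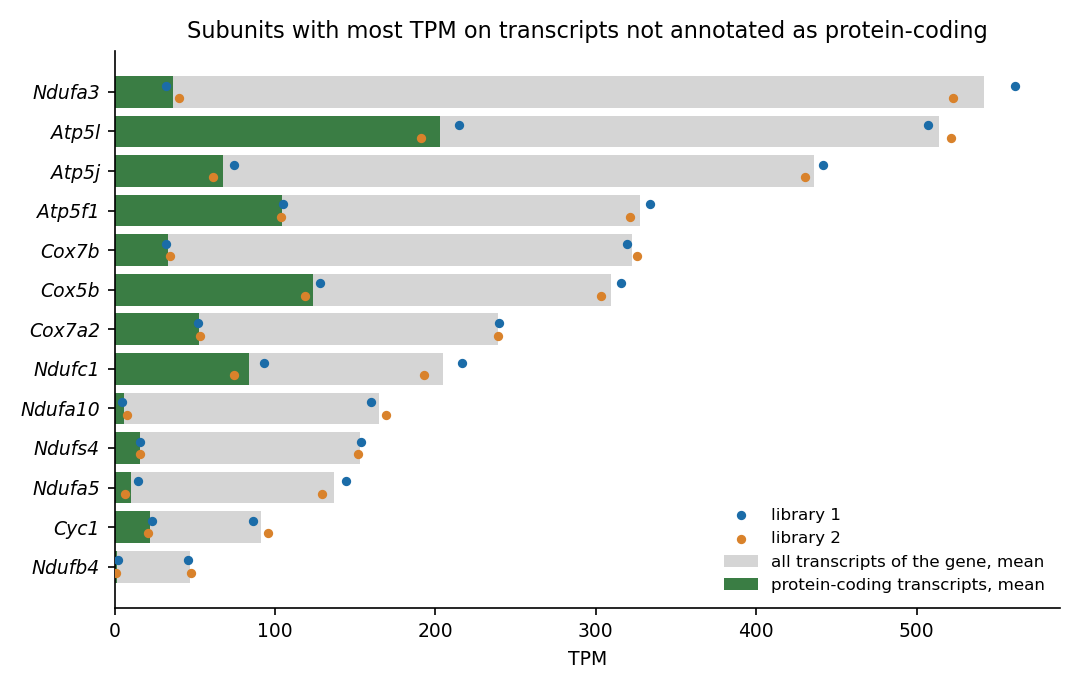
For the 13 subunits with at least 50% of TPM on other transcript types in both libraries, grey bars give the mean TPM over all transcripts, green bars the mean over protein-coding transcripts, and points the libraries. Ndufa3 has the longest grey bar, and its green bar reaches less than 40 TPM.

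Among the 78 expressed, 70 had several annotated transcripts, and in 67 of these library 1 and library 2 had the same leading transcript. It held at least 90% of the gene in both libraries for 32 of 78. Ndufv3 is a known case of a short and a long protein form, with the long form made by including a large exon. The short Ndufv3-202 held 87.7% of the gene's TPM in library 1 and 85.4% in library 2, and the long Ndufv3-201 held 6.84% and 9.18%. Atp5c1-203, with 10 exons, held 94.3% and 92.6%, and the 9-exon form Atp5c1-201, which lacks the exon skipped in muscle, held 5.40% and 5.62%. The main Cox4i1 transcript held 95.7% in library 1 and 89.2% in library 2.

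Many of these genes have processed pseudogenes, copies made from their mRNA, and reads of such sequence cannot be placed with certainty. Of the 78 expressed, 35 shared at least 1 window of 50 bases of their leading transcript exactly with another gene's transcript, and 16 shared 20% of windows or more. The gene sharing most was a pseudogene for 29 of the 36 identifiers with any sharing. Atp5g2 shared 87.4% of windows, most of all with the pseudogene Gm10175, which was assigned 3409.5 reads in library 1 and 3149.8 in library 2. Its 304 estimated reads in library 1 and 326 in library 2 carried posterior SDs of 109 and 81.6 reads, and its place among the ring genes is uncertain. Ndufb4 had 255 and 244 reads while its pseudogene Ndufb4c had 895 and 822 reads, and 161 of the 416 windows of Ndufb4 are shared with other genes, most of all with Ndufb4c. The other identifier of Atp5o, which shares 89.8% of windows with other genes, was listed at 0.

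The subunits differed little between the libraries. Of 86 identifiers 79 had 10 reads or more in all and entered the exact binomial test, two-sided and adjusted by Benjamini-Hochberg over 17271 genes. At an adjusted p under 0.05, 24 were called (30.4%), against 24.3% of all genes tested and 35.3% of protein-coding genes with 500 reads or more, a set closer to the subunits in read number. Higher in library 1 were 17 of them, against 11.6% of all genes, and lower in library 1 were 7, against 12.7%. By complex, 9 of 35 tested subunits were called in complex I, 2 of 4 in complex II, 5 of 9 in complex III, 4 of 14 in complex IV and 4 of 17 in complex V. The median size of the log2 ratio was 0.075, against 0.23 over all genes tested and 0.12 over protein-coding genes with 500 reads or more. The largest called ratios upward were Ndufc2, an accessory complex I subunit, with 1281 reads in library 1 and 1027 in library 2 (log2 ratio 0.28, adjusted p = 7.97e-05 in the exact binomial test), Cox8a (0.21) and Uqcrq (0.21). The largest downward were Uqcrc1 with 2197 and 2574 reads (-0.27), Atp5a1 with 7893 and 9213 reads (-0.27), and Atp5b with 5593 and 6487 reads (-0.26). This test knows only counting error. An edgeR exact test at an assumed dispersion of 0.01 called 0 of the 79, with 0 at an unadjusted p under 0.05. It called only 2.85% of all 17271 genes tested. The whole-number counts of the second gene table, which holds far fewer reads, called 1 of 79, against 9.95% of 10978 genes tested.

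The ratio followed length. Of 44 tested subunits under 700 bases, 11 were called higher in library 1 and 0 lower, with a median log2 ratio of 0.066. Of 22 between 700 and 1200 bases, 3 were higher and 0 lower, with a median of -0.0060. Of 13 with 1200 bases or more, 3 were higher and 7 lower, with a median of -0.13. The long genes called lower included Uqcrc1, Atp5a1, Atp5b, Sdha, Ndufa9 and Ndufv1. Protein-coding genes with 500 reads or more had medians of 0.092, 0.026 and -0.025 in the same length classes, so the short genes of the whole table leaned the same way. Under 700 bases, 104 of 271 such genes were called higher in library 1 and 4 lower (39.9% called, against 25% of the subunits). Between 700 and 1200 bases 143 of 864 were higher and 111 lower (29.4%, against 13.6%), and at 1200 bases or more 798 of 5908 were higher and 1329 lower (36.002%, against 76.9%). Spearman's rho between length and ratio was -0.47 over the 78 expressed subunits and -0.04 over 10171 expressed protein-coding genes, and all points share the same libraries. Length and level were also related, with a rho of -0.38 over the subunits and -0.32 over expressed protein-coding genes. The part of length in the differences between complexes was not tested.

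**Figure D4:**
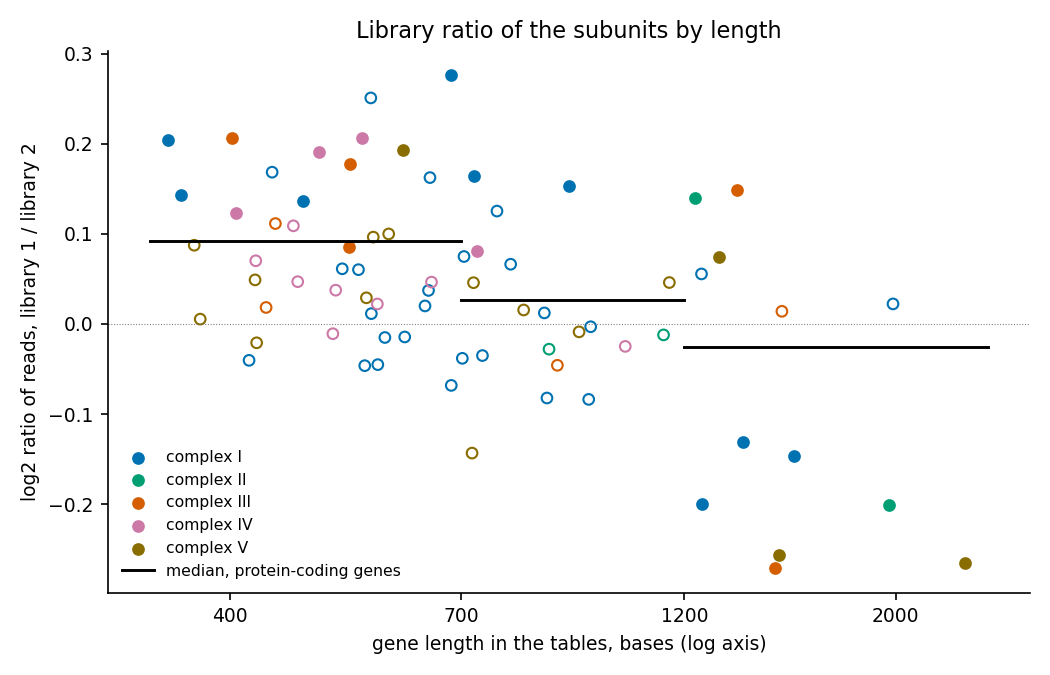
The log2 ratio of reads, library 1 over library 2, is plotted against gene length on a log axis for the 75 subunits with 500 reads or more in all, coloured by complex, filled where called and open where not. Black lines give the median of protein-coding genes in 3 length classes, and the called genes at low ratios all lie at 1200 bases or more.

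A second deposited gene table, of whole-number counts on an older annotation, held far fewer reads, 3474097 in library 1 and 3471321 in library 2. For 77 subunits with at least 50 reads in the first table, the median count in the second was 30.2% of the first in library 1 and 31.2% in library 2, against 40.4% and 40.6% over protein-coding genes. Ndufv1 kept 69.1% on average. Cox4i1, with 7837 and 7191 reads in the first table, had 1106 and 1096 in the second, or 14.7%. Atp5g1 had 15 and 13 counts, Cox7c 17 and 19, and Atp5l 25 and 21, each under 1% of the first table on average over the libraries. Subunits with no shared window kept a median of 41.0% in library 1 and 43.3% in library 2, and those with 20% or more shared windows 13.1% and 13.1%. By read density the order was not simple. Subunits with under 1 read per base of effective length, 5 in library 1 and 6 in library 2, kept 35.4% and 44.7%, those with 1 to 3 reads per base 47.4% and 45.9%, and those with 3 or more 19.3% and 20.3%. Protein-coding genes in the same classes kept 42.9% and 43.3%, 36.3% and 37.1%, and 11.5% and 11.2%, so in the upper 2 classes the subunits kept more than protein-coding genes did, the reverse of the comparison over all densities. The sources used here do not give the counter of the second table, and the cause of these losses was not tested. The levels given here are those of the first table.

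**Figure D5:**
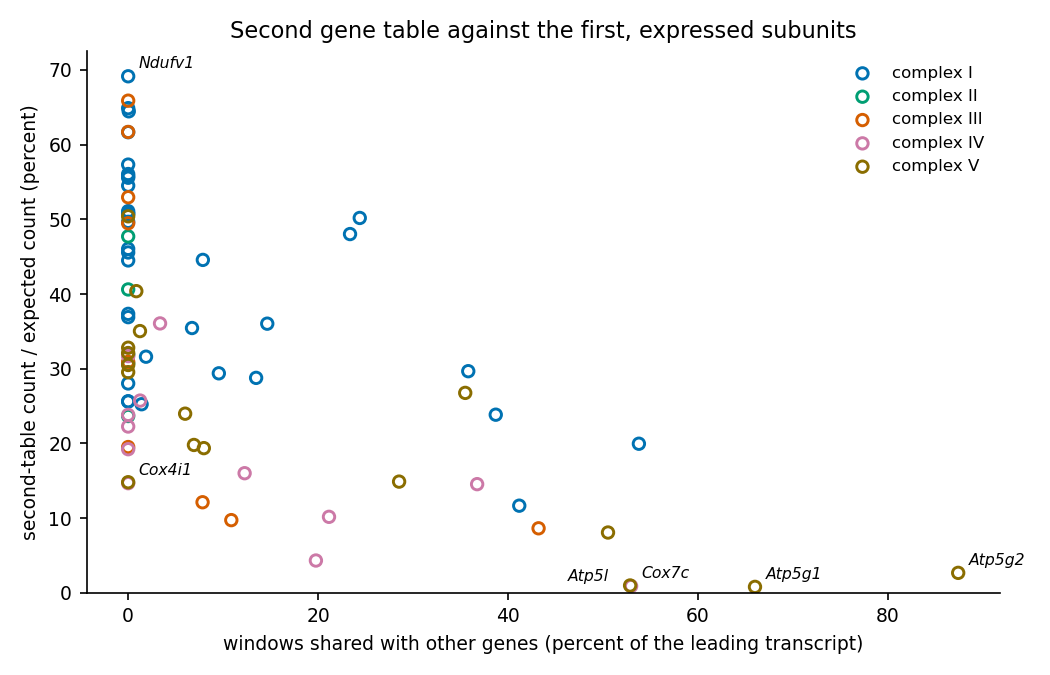
The count in the second table as a percent of the estimated reads in the first, averaged over libraries, is plotted against the percent of 50-base windows shared with other genes for the 77 subunits. Points are coloured by complex, and Atp5g1, Cox7c and Atp5l lie near 0% at over 50% shared windows, while Cox4i1 is low with no shared window.

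The genes lie on 19 chromosomes, from 2 on chromosome 18 to 8 on chromosome 7. Of the 78 expressed, 19 (24.4%) had the start of a protein-coding gene on the opposite strand within 1000 bases, pointing away, against 11.7% of expressed protein-coding genes. Ndufa7 starts 10 bases from Rps28, a ribosomal protein gene with 1770 TPM in library 1 and 1611 TPM in library 2. Sdhd starts 98 bases from Timm8b, a mitochondrial import gene with 89.1 and 86.1 TPM. Other such neighbours had levels from 0 TPM for Morn5 beside Ndufa8 to 98.6 TPM for Zmat5 beside Uqcr10 in library 2.

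The median level of the mitochondrially encoded subunits stood above that of the highest nuclear one, Cox4i1. All 13 exceeded 100 TPM in both libraries, with a median of 1796 TPM in library 1 and 1665 TPM in library 2. The highest was mt-Co3 at 6138 and 6503 TPM, and the lowest mt-Nd4l at 489 and 382 TPM. All 13 were called between the libraries, 12 higher and 1, mt-Co3, lower in library 1, against 24.3% of all genes and 35.3% of protein-coding genes with 500 reads or more. At their read numbers small ratios are called, such as the log2 ratio of -0.04 for mt-Co3.

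Assembly factors, which build the complexes but are not part of them, were all expressed, mostly at lower levels than the subunits. Their list medians were 22.3, 31.6, 15.8, 36.5 and 20.5 TPM for complexes I to V, against 207 TPM over the subunits. Cox17 stood above that subunit median. For complex I 14 of 14 reached 1 TPM in both libraries, from Ndufaf8 at 72.9 ± 1.9 TPM to Nubpl at 4.05 ± 1.04 TPM (SD, n = 2). For complexes II and III 4 of 4 and 6 of 6 did, with Sdhaf2 at 59.5 and Uqcc2 at 98.0 TPM highest and Sdhaf3 at 2.94 and Lyrm7 at 3.30 TPM lowest. For complex IV 19 of 19 did, led by the copper chaperone Cox17 at 214 ± 14 TPM, with Sco2 lowest at 1.53 TPM. For complex V 4 of 4 did, in a list that also holds the ATP synthase inhibitor Atpif1, highest at 172 ± 5.5 TPM, with Tmem70 lowest at 14.1 TPM. Between the libraries, 1 of 14, 1 of 4, 1 of 6, 4 of 19 and 0 of 4 genes of these lists were called for complexes I to V, against 24.3% of all genes tested.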

How the data were processed

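The submitters deposited, for each of 2 libraries, a gene table and a transcript table on mm10 with GENCODE M21, per the deposited listing of each sample's files. Expected counts (estimated reads that need not be whole), TPM and FPKM are columns the authors deposited per the file headers, and the isoform percent deposited with the transcripts is a transcript's share of its gene. The deposited second table holds whole-number counts of genes in GENCODE M4. The sources used here do not give the quantification tool, the counter of that table or the strandedness. Rows that name no gene (0.142% and 0.186% of reads in library 1 and library 2) stayed out of library sizes and tests.

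Symbols, types and coordinates came from GENCODE M21. After rounding to whole numbers, each gene's expected counts entered an exact binomial test, two-sided as 2 times the smaller tail, of library 1's share of the gene reads, for genes with 10 or more reads in all, with Benjamini-Hochberg adjustment over all of them. With 1 group of 2 technical libraries there are no residual degrees of freedom, so edgeR's quasi-likelihood test could not be fitted. Log2 ratios add 0.5 to each count, and levels use log2(TPM + 1). A gene with 0 reads is given the level of 3 reads as its limit. Shared sequence was counted over windows of 50 bases, the read length that the tables' length columns correspond to. The alternatives used DESeq2 1.42.0 (size factors) and edgeR 4.0.16 (an exact test at an assumed dispersion of 0.01, and TMM sizes) in R 4.3.3. All else was done with Python 3.11.15, scipy 1.17.1, numpy 2.4.6, pandas 2.3.3 and matplotlib 3.10.9. No interval or limit here covers more than counting error, since the reads carry no molecular identifiers.

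The subunits, lists, motifs, length classes and shown promoters were chosen with earlier results of these data known. Named genes were the 3 highest and the lowest of each complex, the core subunits and the paralogues, the 3 called subunits with the largest ratio in each direction, and the highest and lowest of each list. Others were named after their values were seen. Values of a few genes are not reported here.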

Additional observations from a re-analysis of the deposited data

Results flagged for a closer look

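Rows with matching symbols but another gene type carried signal outside the 86 subunits. The processed pseudogene Ndufb4c had 212 TPM in library 1 and 206 TPM in library 2 (mean 208.7 TPM), above the 45.7 and 47.8 TPM of Ndufb4 itself. Ndufb1-ps, annotated as a long noncoding RNA from a bidirectional promoter, had 183 and 175 TPM (mean 179 TPM). The processed pseudogene Cox6c2 had 27.9 and 21.2 TPM (mean 24.5 TPM), against 551 and 565 TPM for Cox6c. All 3 exceed the level that a count of 0 allows. The other 9 of these 12 rows averaged 2.37 TPM or less. The group has 2 libraries, too few to look for a library that stands apart from the rest of its group.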

How the results depend on the processing

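Of 44 values recomputed under another setting, 30 stayed within the spread between libraries or, for counts, within 1.5 times, and 14 moved. The main test called 24 of 79 subunits, against 24.3% of all genes tested. The edgeR exact test at a dispersion of 0.01 called 0 of 79, against 2.85%, and the second table's counts called 1 of 79, against 9.95%. TMM sizes gave 21 of 79 and DESeq2 size factors 27 of 79, against 24.4% and 24.5% of all genes tested. Counting filters of 1 and 100 reads gave 19 of 81 and 27 of 77, against 12.4% and 32.8%. The median log2 level, 7.70, was 7.69 with a pseudocount of 0.1, 7.79 over subunits at 1 TPM or more and 7.40 on FPKM. The share of TPM was 1.10% by reads and 2.49% of protein-coding TPM. With only subunits at 1 TPM or more, the differences from the other subunits were -0.96, -0.49, 0.29, 0.87 and 0.73 for complexes I to V. Without Cox7a2l and Atp5s, complex IV stood at 0.24 and complex V at 0.81. No direction turned. Leaving out either library is no check on a level, since a mean of 2 values cannot then move beyond their SD. The count of expressed subunits was 78 to 79, and the library comparison itself has no value without a library. No paired analysis was possible because there is 1 group. With 2 technical libraries of 1 mouse, nothing here bounds the spread between animals.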
